A study of Mus musculus with 16 samples.

Results

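The transcripts of 10 genes that encode subunits of condensin and cohesin were examined in cultured brain endothelial cells, out of 39057 genes counted and 12481 tested. The 5 condensin genes were *Smc2*, *Smc4*, *Ncapd2*, *Ncapg* and *Ncaph*, and the 5 cohesin genes were *Smc1a*, *Smc3*, *Rad21*, *Stag1* and *Stag2*. All 10 passed the filter on low counts. They were chosen because condensin and cohesin transcripts had been seen to differ between *APOE4* and *APOE3* cells in these same libraries. Their levels in the 2 genotypes are therefore a description, and a count of members past the threshold of the fit over all genes is given once beside the share of all genes, with nothing read from it. For the members, results of tests are drawn only for sex, for the genotype by sex interaction and for variation among libraries of 1 genotype. Other genes of the same pathways were tested between genotypes, in lists drawn up with earlier results of these data known.

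Primary cortical brain endothelial cells came from mice of 21 to 28 days in which human *APOE3* or human *APOE4* replaces the mouse gene and is expressed from the mouse promoter (targeted replacement). Each of the 16 libraries was 1 culture from 1 brain, with 8 libraries per genotype and 4 from males and 4 from females in each. All cultures were selected with 8 µg/ml puromycin, grown to confluence and left untreated. The comparison asks how human *APOE* genotype modulates the brain endothelial cell, in cultures where every cell carries the same replacement allele.

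Total counts were 14276942 to 16603076 in *APOE3* and 12717847 to 18624417 in *APOE4* libraries, and the members had 106 (*Ncapg*) to 4366 (*Smc1a*) counts per library. Counts of human *APOE* ran from 15504 to 22318 in *APOE3* and from 7672 to 14722 in *APOE4* libraries. Marker levels were summed in CPM (read counts scaled to library size). The sum of 10 brain endothelial markers was 11910 to 12880 CPM in *APOE3* and 11840 to 12960 in *APOE4* libraries. Of the 10, 1 was differentially expressed, where 12.8% of all genes tested were. Pericyte and smooth muscle markers summed to 183.4 to 341.2 and 219.3 to 327.8 CPM, mostly *Acta2* and *Tagln*, and fibroblast markers to 12.44 to 60.46 and 8.48 to 77.03 CPM, with 0 of the 5 and 0 of the 3 genes tested from these lists of 8 and 5 differentially expressed. Sums for the other cell types were at most 14.83 CPM (neuron markers), and the microglial genes *P2ry12* and *Itgam* and the oligodendrocyte gene *Olig2* were at 0 in every library.

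Condensin and cohesin are ring-shaped complexes built on a pair of SMC (structural maintenance of chromosomes) ATPases that is closed by a kleisin subunit. Condensin compacts chromosomes for mitosis and is needed when cells divide. Cohesin holds sister chromatids together from replication until anaphase, but it also forms chromatin loops in interphase, so that non-dividing cells use it too. Brain endothelial cells at confluence divide little. An RNA level averaged over a culture can depend on how many of its cells are in the cell cycle. The share of such cells was not measured in these libraries.

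In condensin, *Smc2* and *Smc4* encode the ATPase pair, *Ncaph* the kleisin, and *Ncapd2* and *Ncapg* the HEAT-repeat subunits of the form called condensin I. The genes lie at chr4:52439243-52488260 (*Smc2*, ENSMUSG00000028312.19), chr3:69004738-69034623 (*Smc4*, ENSMUSG00000034349.14), chr2:127103809-127133954 (*Ncaph*, ENSMUSG00000034906.15), chr6:125168007-125191701 (*Ncapd2*, ENSMUSG00000038252.13) and chr5:45669919-45700546 (*Ncapg*, ENSMUSG00000015880.13) of GRCm38. In cohesin, *Smc1a* and *Smc3* encode the ATPases, *Rad21* the kleisin that separase cleaves, and *Stag1* and *Stag2* alternative subunits that bind it. They lie at chrX:152016428-152062694 (*Smc1a*, ENSMUSG00000041133.11), chr19:53600398-53645833 (*Smc3*, ENSMUSG00000024974.10), chr15:51962240-51991747 (*Rad21*, ENSMUSG00000022314.9), chr9:100597798-100959375 (*Stag1*, ENSMUSG00000037286.15) and chrX:42149317-42277185 (*Stag2*, ENSMUSG00000025862.14). All 10 are protein coding.

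Promoter windows of 300 bases, 250 before and 50 from the RefSeq start on GRCm38.p6, were available for 7 members: *Smc2*, *Ncapd2*, *Ncapg*, *Ncaph*, *Smc1a*, *Smc3* and *Stag1*. There was none for *Smc4*, *Stag2* or *Rad21*, the cohesin gene that moved most closely with the condensin genes. The 7 windows were searched on both strands for 3 kinds of motif known from promoters of cell cycle genes, which did not overlap one another in these windows. The cell cycle genes homology region (CHR) was searched as TTTGAA or TTTAAA or TTCGAA, the CCAAT box as CCAAT, and E2F sites as TTTCGCGC or TTTGGCGC or GGCGGGAA. A CHR motif was in 3 of the 4 condensin windows and 0 of the 3 cohesin windows, against 28.8% of 32851 windows genome-wide. A CCAAT box was in 3 of 4 condensin and 2 of 3 cohesin windows, against 37.4% of all windows. Of the 3 E2F spellings searched, a match was in the window of *Ncapd2* alone, against 2.96% of all windows. Other spellings of an E2F site were neither searched nor marked, so the other windows may hold some. The hits are matches of letters in a handful of windows and say nothing of which factors bind.

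The condensin windows are shown 5′ to 3′ because these genes moved together across libraries, with that of *Smc1a*, a cohesin gene whose level hardly varied, for comparison. Capitals mark the motif letters, which on the gene's own strand read TTTGAA or TTCAAA for the CHR, CCAAT or ATTGG for the CCAAT box and TTTGGCGC for E2F.
*Smc2*, chr4:52438971-52439270, plus strand: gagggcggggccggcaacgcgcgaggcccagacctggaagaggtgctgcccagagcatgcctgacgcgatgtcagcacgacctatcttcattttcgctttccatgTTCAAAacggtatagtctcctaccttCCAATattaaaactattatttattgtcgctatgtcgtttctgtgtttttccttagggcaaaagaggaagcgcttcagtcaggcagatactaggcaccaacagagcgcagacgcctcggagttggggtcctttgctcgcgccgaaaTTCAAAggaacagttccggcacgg
*Ncapd2*, chr6:125191537-125191836, minus strand: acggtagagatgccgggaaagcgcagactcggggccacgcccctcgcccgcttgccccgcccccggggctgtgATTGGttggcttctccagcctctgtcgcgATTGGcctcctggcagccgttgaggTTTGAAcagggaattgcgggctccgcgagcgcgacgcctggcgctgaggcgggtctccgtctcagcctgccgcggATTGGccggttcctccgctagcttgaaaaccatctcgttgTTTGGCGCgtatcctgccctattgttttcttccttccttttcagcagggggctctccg
*Ncapg*, chr5:45669675-45669974, plus strand: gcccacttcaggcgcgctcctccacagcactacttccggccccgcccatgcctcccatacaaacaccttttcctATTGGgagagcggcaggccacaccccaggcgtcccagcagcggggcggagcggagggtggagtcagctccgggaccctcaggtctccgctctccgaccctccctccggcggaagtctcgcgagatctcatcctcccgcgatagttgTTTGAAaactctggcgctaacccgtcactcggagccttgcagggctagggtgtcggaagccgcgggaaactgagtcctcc
*Ncaph*, chr2:127133905-127134204, minus strand: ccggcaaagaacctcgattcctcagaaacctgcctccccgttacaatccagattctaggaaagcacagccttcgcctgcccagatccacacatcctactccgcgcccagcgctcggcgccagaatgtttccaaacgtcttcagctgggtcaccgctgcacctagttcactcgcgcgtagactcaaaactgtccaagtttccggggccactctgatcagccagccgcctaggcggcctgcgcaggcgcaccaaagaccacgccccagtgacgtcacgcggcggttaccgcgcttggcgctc
*Smc1a*, chrX:152016178-152016477, plus strand: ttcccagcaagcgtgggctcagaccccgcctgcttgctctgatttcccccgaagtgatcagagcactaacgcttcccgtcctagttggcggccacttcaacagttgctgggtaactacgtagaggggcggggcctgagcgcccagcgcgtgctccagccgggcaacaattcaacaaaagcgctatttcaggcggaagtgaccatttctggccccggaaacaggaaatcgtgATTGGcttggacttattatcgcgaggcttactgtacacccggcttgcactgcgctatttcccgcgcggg
The CHR motif began 30 bases before the start in *Ncapg*, 123 bases before it in *Ncapd2*, and in *Smc2* both 145 bases before it and at base 27 of the transcript. *Ncapd2* had 3 CCAAT boxes, 177, 148 and 48 bases before the start, and its E2F motif began 8 bases before it. The window of *Ncaph* held none of the spellings searched, although its level moved with those of the other condensin genes.

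All 5 condensin transcripts were higher in *APOE4* than in *APOE3* brain endothelial cells, by 0.37 to 0.63 on the log2 scale, with a median of 0.50. The 5 cohesin transcripts differed by -0.01 to 0.20, with a median of 0.10. All 5 condensin genes and 1 cohesin gene (*Rad21*) passed an adjusted p of 0.05 in edgeR, where 12.8% of the genes tested passed in either direction and 6.71% passed as higher in *APOE4* cells. The median of all genes tested was -2.19e-04. Since the members were chosen on this contrast, nothing further is read from these counts. No member was without overlap between the genotypes, as 0.625% of all genes tested were.

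The largest difference was that of *Ncapg*, the subunit with the fewest reads. Its lowest, median and highest levels were 6.8, 10.6 and 15.2 CPM in *APOE3* and 13, 16.4 and 22.6 CPM in *APOE4* libraries. The groups overlapped in part, with 6 of 8 *APOE4* libraries above the highest *APOE3* library, and the means were 11.04 ± 2.758 and 17.13 ± 3.319 CPM (SD, n = 8 each). The log2 fold change was 0.63 (SE 0.141), or 1.55-fold. Of its exon bases, 13.4% overlap *Lcorl* on the opposite strand, and the strand setting of the counting is not given in the sources used here.

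*Ncaph*, the kleisin, had lowest, median and highest levels of 25.3, 33.7 and 44.8 CPM in *APOE3* and 37.7, 48.0 and 60.5 CPM in *APOE4* libraries. Again 6 of 8 *APOE4* libraries lay above all *APOE3* libraries, and the log2 fold change was 0.51 (SE 0.106). *Ncapd2*, the most abundant of the 5, had 80.9, 104.5 and 139.0 CPM in *APOE3* and 119.0, 140.5 and 190.7 CPM in *APOE4* libraries. For *Ncapd2*, 5 of 8 *APOE4* libraries exceeded the highest *APOE3* library and the log2 fold change was 0.45 (SE 0.102). Of its exon bases, 7.53% are shared on the same strand with *Scarna10* and *Gm28967*.

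For the ATPase pair, *Smc2* levels were 36.3, 45.5 and 61.0 CPM (lowest, median, highest) in *APOE3* and 53.3, 63.2 and 81.8 CPM in *APOE4* libraries, and 6 of 8 *APOE4* libraries were above the *APOE3* range. Its log2 fold change was 0.50 (SE 0.0972). *Smc4* levels were 60.1, 68.4 and 79.4 CPM in *APOE3* and 78.5, 89.1 and 100.7 CPM in *APOE4* libraries. *Smc4* came closest to a full separation, with 7 of 8 *APOE4* libraries above every *APOE3* library, although its log2 fold change of 0.37 (SE 0.0556) was the smallest of the 5. It also varied least within a genotype, with SDs of 0.124 and 0.120 on the log2 scale, against 0.376 and 0.272 for *Ncapg*.

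The same few libraries lay at the ends of each condensin range. *APOE3* replicate 31 was the highest *APOE3* library for 5 of 5 genes and replicate 30 the lowest for 4 of 5. *APOE4* replicate 35 was the highest *APOE4* library for 4 of 5, with replicate 41 highest for *Smc4*, and *APOE4* replicate 36 was the lowest for 3 of 5. For each condensin gene, all 8 *APOE4* libraries exceeded the *APOE3* median.

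**Figure D1:**
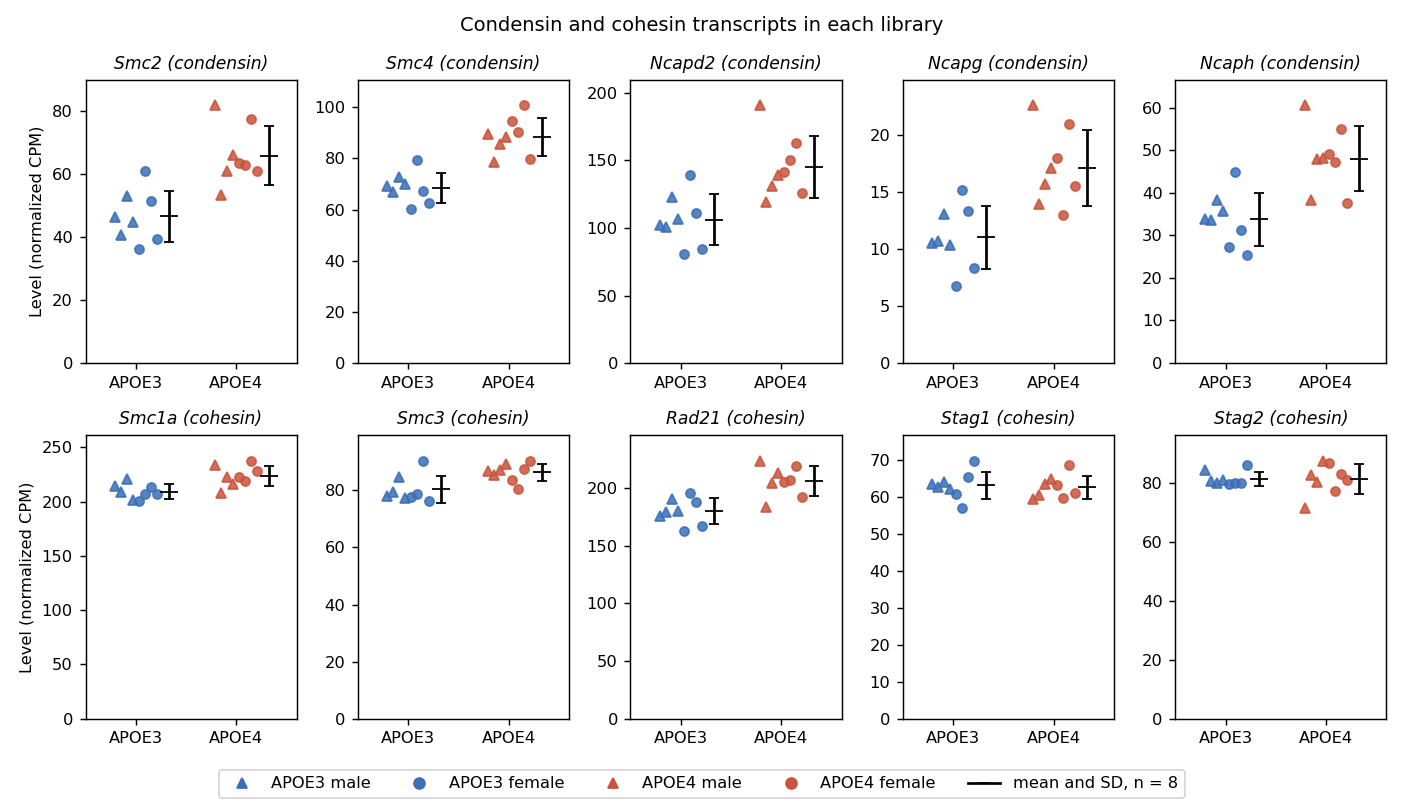
Level of each member in each of 16 libraries, in CPM after TMM normalization, by genotype, with males as triangles and females as circles and the mean with SD (n = 8) beside them. The condensin panels (top) show *APOE4* libraries shifted upward with partial overlap, while *Stag1* and *Stag2* (bottom right) lie in the same range in both genotypes.

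Among the cohesin genes, *Rad21* had lowest, median and highest levels of 162.9, 179.2 and 195.4 CPM in *APOE3* and 183.6, 205.8 and 223.2 CPM in *APOE4* libraries. As for 3 of the condensin genes, 6 of 8 *APOE4* libraries were above the *APOE3* range. Its log2 fold change of 0.20 (SE 0.0440) was smaller than that of any condensin gene.

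The cohesin ATPases differed less. *Smc1a* levels were 200.6, 207.9 and 220.9 CPM in *APOE3* and 207.8, 222.7 and 237.4 CPM in *APOE4* libraries, with 5 of 8 above the *APOE3* range, and the log2 fold change was 0.10 (SE 0.0317). *Smc3* levels were 76.2, 78.4 and 90.2 CPM in *APOE3* and 80.5, 86.9 and 90.3 CPM in *APOE4* libraries, with 1 of 8 above the range, and the log2 fold change was 0.10 (SE 0.0364).

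The 2 alternative subunits differed least. *Stag1* levels were 57.0, 63.0 and 69.7 CPM in *APOE3* and 59.3, 62.1 and 68.6 CPM in *APOE4* libraries, and its log2 difference was -0.01 (SE 0.0401). *Stag2* levels were 79.7, 80.4 and 85.9 CPM in *APOE3* and 71.6, 81.7 and 87.4 CPM in *APOE4* libraries, and its log2 difference was -0.0027 (SE 0.0371). *Stag1* had no and *Stag2* had 2 *APOE4* libraries above the *APOE3* range. The sign of the *Stag1* and *Stag2* values changed when the cell cycle score described below was in the model.

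The genotype difference was also read within each sex. The difference in mean log2 CPM of *Ncapg* was 0.61 in males and 0.68 in females, and that of *Smc4* was 0.30 and 0.44, the widest gap among the condensin genes. That of *Rad21* was 0.18 and 0.21. The genotype by sex interaction was tested in an edgeR fit of 4 groups of 4 libraries. None of the 10 members passed, the interaction ran from -0.04 (*Smc3*, SE 0.0774) to 0.14 (*Smc4*, SE 0.113), and 0 members had an unadjusted p under 0.05. Of all genes tested, 0 (0%) passed in edgeR and in DESeq2, and 345 had an unadjusted p under 0.05 in edgeR.

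*Smc1a* and *Stag2* lie on the X chromosome, of which one copy is silenced in each female cell. Female and male libraries averaged 217.0 ± 12.4 and 215.8 ± 10.0 CPM for *Smc1a* and 81.6 ± 3.28 and 81.0 ± 4.57 CPM for *Stag2* (SD, n = 8). The female minus male log2 difference was 0.01 for both (0.0065, SE 0.0317, and 0.0101, SE 0.0395). None of the 10 members differed by sex, with values from -0.09 (*Ncaph*, SE 0.109) to 0.02 (*Smc4*, SE 0.0563) and an adjusted p of 0.9999 in edgeR, and 0 had an unadjusted p under 0.05 in edgeR or passed in DESeq2. Across all genes tested, 9 (0.0721%) differed by sex in edgeR and 10 in DESeq2.

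Of 401 X-linked genes tested, 5 differed by sex and all 5 were higher in females: *Xist*, the RNA that silences the X, and 4 genes known to escape silencing. These were *Eif2s3x* (log2 difference 0.62, SE 0.0628), *Kdm6a* (0.54, SE 0.0624), *Kdm5c* (0.44, SE 0.0279) and *Ddx3x* (0.29, SE 0.0409). *Smc1a* and *Stag2* had differences smaller in size than those of 364 and 347 of the 401 X-linked genes.

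**Figure D2:**
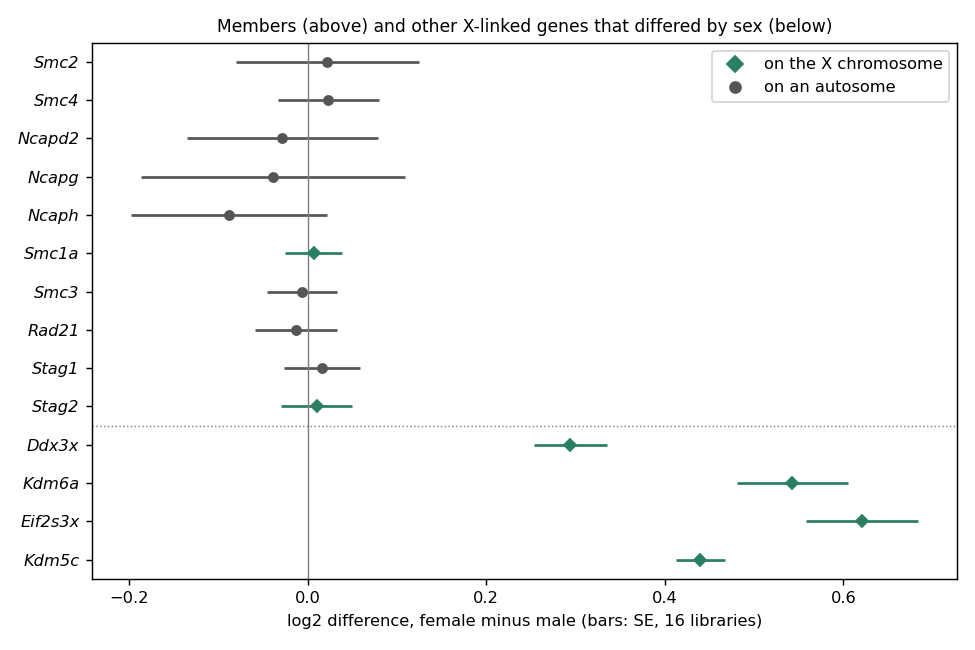
Female minus male log2 difference (x axis) with its SE over 16 libraries, for the 10 members above the dotted line and the other X-linked genes that differed by sex, apart from *Xist*, below it, with X-linked genes as diamonds. The X-linked members *Smc1a* and *Stag2* sit at 0.01, while the 4 escape genes lie between 0.29 and 0.62.

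The members were next set against a cell cycle score, the mean log2 CPM of 40 genes of DNA replication and mitosis that include no member. *APOE3* libraries scored 5.16 ± 0.318 and *APOE4* libraries 5.69 ± 0.242 (SD, n = 8), from 4.72 (*APOE3* replicate 33) to 5.66 (replicate 31) and from 5.40 (*APOE4* replicate 36) to 6.13 (replicate 35). The 40 genes were listed with earlier results of these data known, and all 40 had a positive log2 difference. Of its 20 S phase genes 15 passed the threshold as higher in *APOE4* cells (median log2 difference 0.33), and of its 20 G2 and M phase genes 20 did (median 0.70), where 6.71% of all genes tested passed in that direction. The smallest and largest values were those of *Rfc2*, a clamp loader subunit (0.07, SE 0.0483, adjusted p = 0.341 in edgeR), and *Hmmr*, a mitotic spindle gene (0.86, SE 0.170, adjusted p = 0.00649). In bulk RNA, more cycling cells and more of these transcripts per cell cannot be told apart. In stained cultures at confluence, the paper reported no genotype difference in cell density or in bromodeoxyuridine-labelled nuclei, its measure of proliferation.

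Within genotype, the level of all 5 condensin genes rose with the score in edgeR. The slope, as log2 change per unit of score with genotype in the model, was 1.05 for *Ncapg* (SE 0.137, adjusted p = 7.82e-06), 0.83 for *Ncapd2* (SE 0.0518, adjusted p = 8.00e-11), 0.83 for *Ncaph* (SE 0.0829, adjusted p = 1.79e-07), 0.77 for *Smc2* (SE 0.0678, adjusted p = 2.24e-08) and 0.37 for *Smc4* (SE 0.0665, adjusted p = 3.94e-04). Slopes fitted in each genotype alone were alike, at 1.13 in *APOE3* and 0.94 in *APOE4* libraries for *Ncapg*, 0.80 and 0.88 for *Ncapd2* and 0.37 and 0.35 for *Smc4*. The difference between those slopes was not tested.

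Of the cohesin genes, *Rad21* alone passed, with a slope of 0.30 (SE 0.0489, adjusted p = 1.13e-04 in edgeR). The slope of *Smc1a* was 0.11 (SE 0.0541, adjusted p = 0.156), that of *Smc3* 0.07 (SE 0.0661, adjusted p = 0.512), that of *Stag1* -0.07 (SE 0.0739, adjusted p = 0.586) and that of *Stag2* -0.10 (SE 0.0653, adjusted p = 0.301). In each genotype alone, the slope of *Rad21* was 0.275 in *APOE3* and 0.355 in *APOE4* libraries. Those of *Stag1* (-0.145 and 0.05) and *Smc3* (0.114 and -0.006) differed in sign, and the difference was not tested. Among all genes tested, 18% had a slope past the threshold and 9.48% a positive one, against 5 of 5 condensin and 1 of 5 cohesin genes. These 6 calls held in each of the 16 fits that left out 1 library and with a score made from the S phase or the G2 and M phase genes alone.

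**Figure D3:**
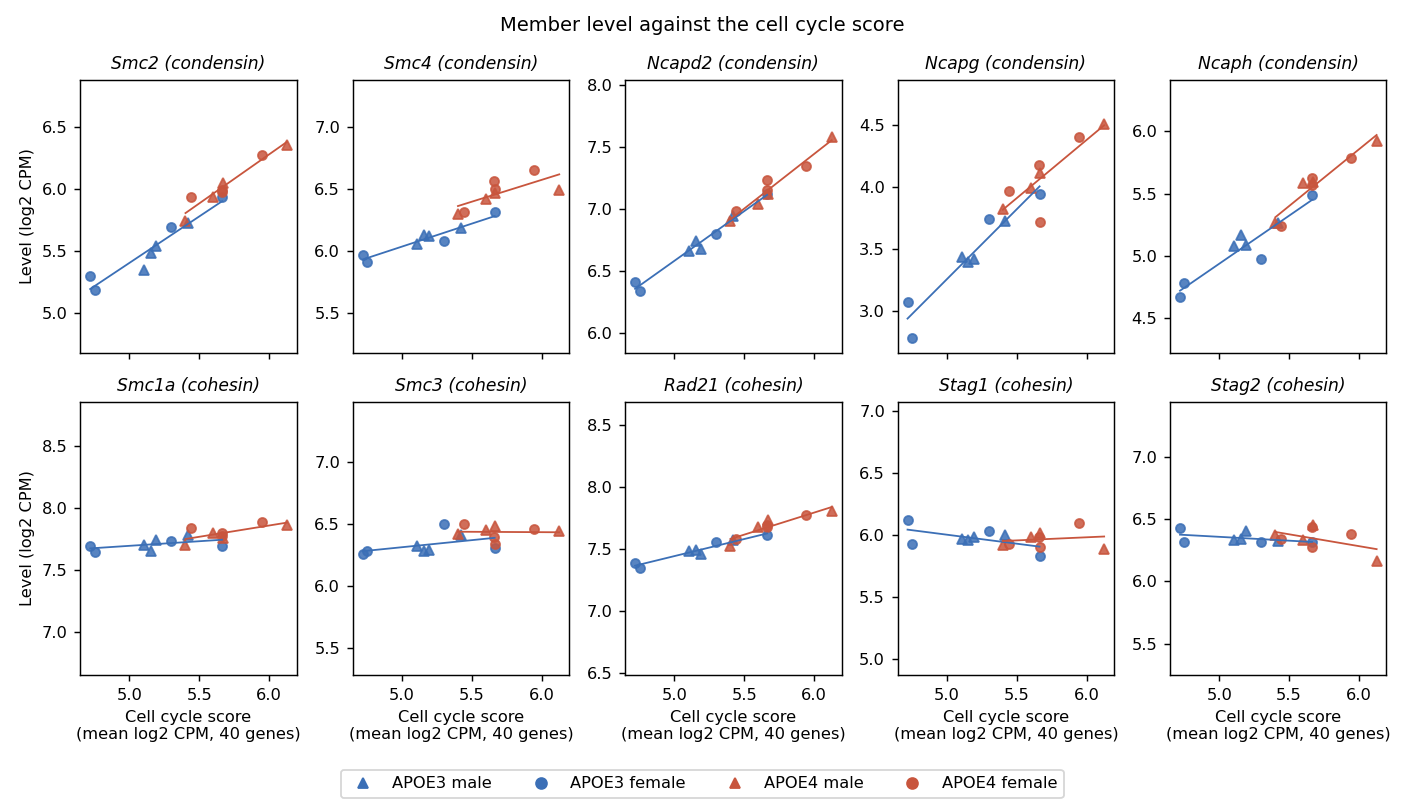
Level of each member (log2 CPM, y axis, with the same span in every panel) against the cell cycle score (mean log2 CPM of 40 genes, x axis) in 16 libraries, with a line fitted in each genotype. The condensin panels and *Rad21* rise along the score in both genotypes, steepest for *Ncapg* (1.05 per unit), while *Smc3*, *Stag1* and *Stag2* stay nearly level.

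With the score as a covariate, the genotype difference was 0.02 (SE 0.0386) for *Ncapd2*, 0.08 (SE 0.0613) for *Ncaph*, 0.10 (SE 0.0999) for *Ncapg*, 0.10 (SE 0.0503) for *Smc2* and 0.18 (SE 0.0492) for *Smc4* on the log2 scale. The cohesin genes had values from 0.02 (*Stag1*) to 0.07 (*Smc3*), and that of *Rad21* was 0.04 (SE 0.0365). *Smc4* had the largest value of the 10 in this model and the smallest of the condensin genes without the score. Of all genes tested 0 (0%) passed in edgeR, where 902 had an unadjusted p under 0.05, and DESeq2 called 1 gene.

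The members also differed in how closely they followed each other. With levels centred within genotype, Pearson's r over the 16 libraries was 0.76 (*Smc4* with *Ncapg*) to 0.95 (*Smc2* with *Ncapd2*) among the 10 condensin pairs, with a median of 0.87. Among the 10 cohesin pairs it was -0.33 (*Rad21* with *Stag2*) to 0.60 (*Smc1a* with *Rad21*), with a median of 0.25. *Rad21* had an r of 0.85 to 0.93 with the condensin genes, above its r with any other cohesin gene. These values share libraries and depth and are given as a description.

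Outside the members, the genes whose centred level was most like the mean of the condensin genes over 16 libraries were *Cdk1* (r = 0.988), the kinase that drives mitosis, *Hmgb2* (0.983), a chromatin protein, *Prc1* (0.982), a spindle midzone protein, *Prr11* (0.980) and *Mki67* (0.980), the proliferation marker Ki-67. All 5 were higher in *APOE4* cells, with log2 fold changes of 0.50 (*Hmgb2*, adjusted p = 0.00827 in edgeR) to 0.75 (*Prr11*, adjusted p = 0.0103). The genes most like the mean of the cohesin genes were *Ppp4r2* (r = 0.846), *Acbd3* (0.830), *Tstd2* (0.803), *Arcn1* (0.790) and *Gm6807* (0.784), and none of these passed the genotype test. That mean joins genes that followed each other loosely (median r of 0.25 among pairs). *Gm6807* had few reads, at 1.28 CPM in *APOE3* and 1.16 CPM in *APOE4* libraries. Both lists hold the highest r values of all genes tested outside the members, and whether these exceed chance was not tested.

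Levels were compared between genes as CPM per kb of merged exons. Over all 16 libraries *Rad21* stood highest at 45.5 ± 4.23 (SD) CPM per kb, followed by *Smc1a* at 37.5 ± 1.89. *Ncapd2* (20.0 ± 4.57), *Smc4* (15.1 ± 2.33) and *Smc3* (15.0 ± 0.891) came next, and *Smc4* did not differ from either neighbour by more than their combined SD. *Smc2* (10.3 ± 2.39), *Stag2* (9.83 ± 0.466) and *Ncaph* (9.49 ± 2.31) could not be ordered by that measure, and *Stag1* (5.34 ± 0.279) and *Ncapg* (1.99 ± 0.610) were lowest. These pooled values mix condensin levels that differ between the genotypes. Within each genotype the means fell in another order, but the ranges of mean ± SD of neighbours in it overlapped. The change of order is a description and was not tested. *Stag2*, *Smc2* and *Ncaph* were at 9.84 ± 0.290, 8.503 ± 1.497 and 7.84 ± 1.44 CPM per kb in *APOE3* libraries, with *Stag2* on top, and at 9.82 ± 0.617, 12.03 ± 1.70 and 11.14 ± 1.77 in *APOE4* libraries, with *Stag2* at the bottom. *Smc3* was at 14.5 ± 0.850 above *Smc4* at 13.15 ± 1.14 in *APOE3* libraries, and at 15.6 ± 0.560 below *Smc4* at 17.0 ± 1.41 in *APOE4* libraries. With all libraries pooled and the length of the longest transcript instead, *Ncaph* came sixth and *Smc2* eighth. The order within each genotype was not recomputed with that length.

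Ratios between subunits per length are given as a description, and their difference between genotypes was not tested. *Smc1a* over *Smc3* was 2.51 ± 0.109 in *APOE3* and 2.49 ± 0.117 in *APOE4* libraries, and *Stag1* over *Stag2* was 0.545 ± 0.0245 and 0.542 ± 0.0276 (SD, n = 8). *Smc2* over *Smc4* was 0.643 ± 0.0652 and 0.708 ± 0.0736. Across the complexes, *Smc2* over the cohesin ATPase *Smc3* was 0.586 ± 0.0953 and 0.773 ± 0.108, with ranges of 0.472 to 0.784 and 0.631 to 0.955.

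**Figure D4:**
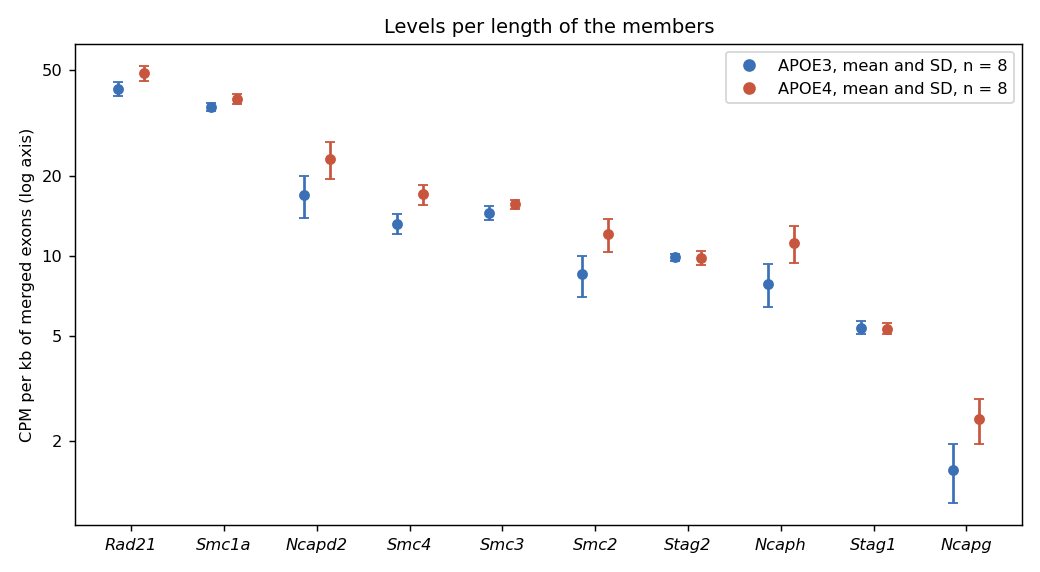
CPM per kb of merged exons on a log axis for the 10 members, in order of their mean over all libraries, as mean and SD per genotype (n = 8). *Rad21* and *Smc1a* lie highest and *Ncapg* lowest in both genotypes, and the genotype gap is widest for condensin genes.

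The other genes of the condensin and cohesin pathways were counted in lists that hold no member. These lists were drawn up with earlier results of these data known, so their counts are not independent of the genotype contrast. Of 41 genes listed 39 were tested, *Smc1b* and *Rad21l* not passing the filter, and 20 were higher and 2 lower in *APOE4* cells, where 12.8% of all genes passed. Their median log2 fold change was 0.22, against -2.19e-04 for all genes tested. With the score as a covariate 0 of them passed, as did 0 of all genes tested.

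Condensin II, the nuclear form that shares *Smc2* and *Smc4*, has its own subunits *Ncapg2*, *Ncapd3* and *Ncaph2*. *Ncapg2* averaged 27.1 ± 4.94 CPM in *APOE3* and 39.1 ± 4.90 CPM in *APOE4* libraries, a rise of 0.53 on the log2 scale (SE 0.0966, adjusted p = 0.00574 in edgeR), and *Ncapd3* rose less, by 0.22 (SE 0.0532, adjusted p = 0.0122). *Ncaph2* had a value of 0.13 (SE 0.0626, adjusted p = 0.184). All 3 rose with the score within genotype, with slopes of 0.75, 0.26 and 0.46. A positive slope past the threshold was found for 9.48% of all genes tested.

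Of 12 genes that regulate condensin or build the mitotic chromosome scaffold, 10 rose, 1 fell and 1 (*Mcph1*) did not pass. Of all genes tested, 12.8% passed in either direction. *Plk1*, a mitotic kinase, rose by 0.76 (SE 0.162, adjusted p = 0.00824 in edgeR), *Cdca2* (Repo-Man) by 0.75 (SE 0.146), *Mki67* by 0.68 (SE 0.146) and *Kif4*, a chromokinesin that works beside condensin, by 0.68 (SE 0.155). *Top2a*, the topoisomerase of the chromosome axis, rose from 157 ± 43.5 to 246 ± 46.4 CPM. *Akap8* was lower, at 72.5 ± 5.10 CPM in *APOE3* and 65.2 ± 3.01 CPM in *APOE4* libraries (-0.15 on the log2 scale, SE 0.0429, adjusted p = 0.0269 in edgeR).

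Of 10 genes that load, release or acetylate cohesin, 2 rose and 1 fell, where 12.8% of all genes tested passed in either direction. The risers were *Esco2*, the S phase acetyltransferase of *Smc3* (0.75, SE 0.167, adjusted p = 0.00929 in edgeR), and *Cdca5* (sororin), which keeps acetylated cohesin on chromosomes (0.57, SE 0.142, adjusted p = 0.0143). *Esco1*, the acetyltransferase that works outside S phase, had a value of 0.12 (SE 0.0930, adjusted p = 0.400). *Mau2*, partner of the loader *Nipbl*, fell from 135 ± 7.71 to 116 ± 4.73 CPM (-0.22, SE 0.0366, adjusted p = 0.00448 in edgeR). It had no overlap between genotypes, as 0.625% of all genes tested had none. *Nipbl* itself had a value of -0.03 (SE 0.0406, adjusted p = 0.695 in edgeR). The release factor *Wapl* (0.05), *Pds5a* (0.03) and *Ctcf* (-0.02), which stops loops, did not pass.

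Of 4 genes of cohesin cleavage and protection, 3 rose, where 6.71% of all genes tested passed as higher. *Espl1* (separase, the protease that cuts *Rad21*) rose by 0.59 (SE 0.123, adjusted p = 0.00817 in edgeR), and the shugoshins *Sgo1* and *Sgo2a*, which guard centromeric cohesin, each rose by 0.69 (SE 0.158 and 0.146). *Pttg1* (securin, the inhibitor of separase) had a value of -0.02 (SE 0.0675, adjusted p = 0.911). The germline subunits *Rec8* (1.53 ± 0.592 and 1.54 ± 0.731 CPM) and *Stag3* (0.644 ± 0.240 and 0.654 ± 0.282 CPM) did not pass.

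Of 8 genes of the Smc5/6 complex and other SMC proteins, 3 rose, where 6.71% of all genes tested passed as higher. *Rad50*, an SMC-like repair protein, rose by 0.28 (SE 0.0537, adjusted p = 0.00620 in edgeR), *Smc6* by 0.22 (SE 0.0398, adjusted p = 0.00574) and *Smc5* by 0.16 (SE 0.0435, adjusted p = 0.0232), and *Nsmce1* had a value of 0.16 (SE 0.0671, adjusted p = 0.123). *Smc6* had no overlap between genotypes, at 42.0 ± 1.65 and 48.8 ± 2.81 CPM, as 0.625% of all genes tested had none. Its slope on the score was 0.07 (SE 0.0743, adjusted p = 0.607 in edgeR). With the score in the model its genotype difference was 0.18 and did not pass (SE 0.0550, adjusted p = 0.529 in edgeR). The call of *Smc5* was lost without *APOE3* replicate 30 or 33 (adjusted p = 0.0504 and 0.0506).

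**Figure D5:**
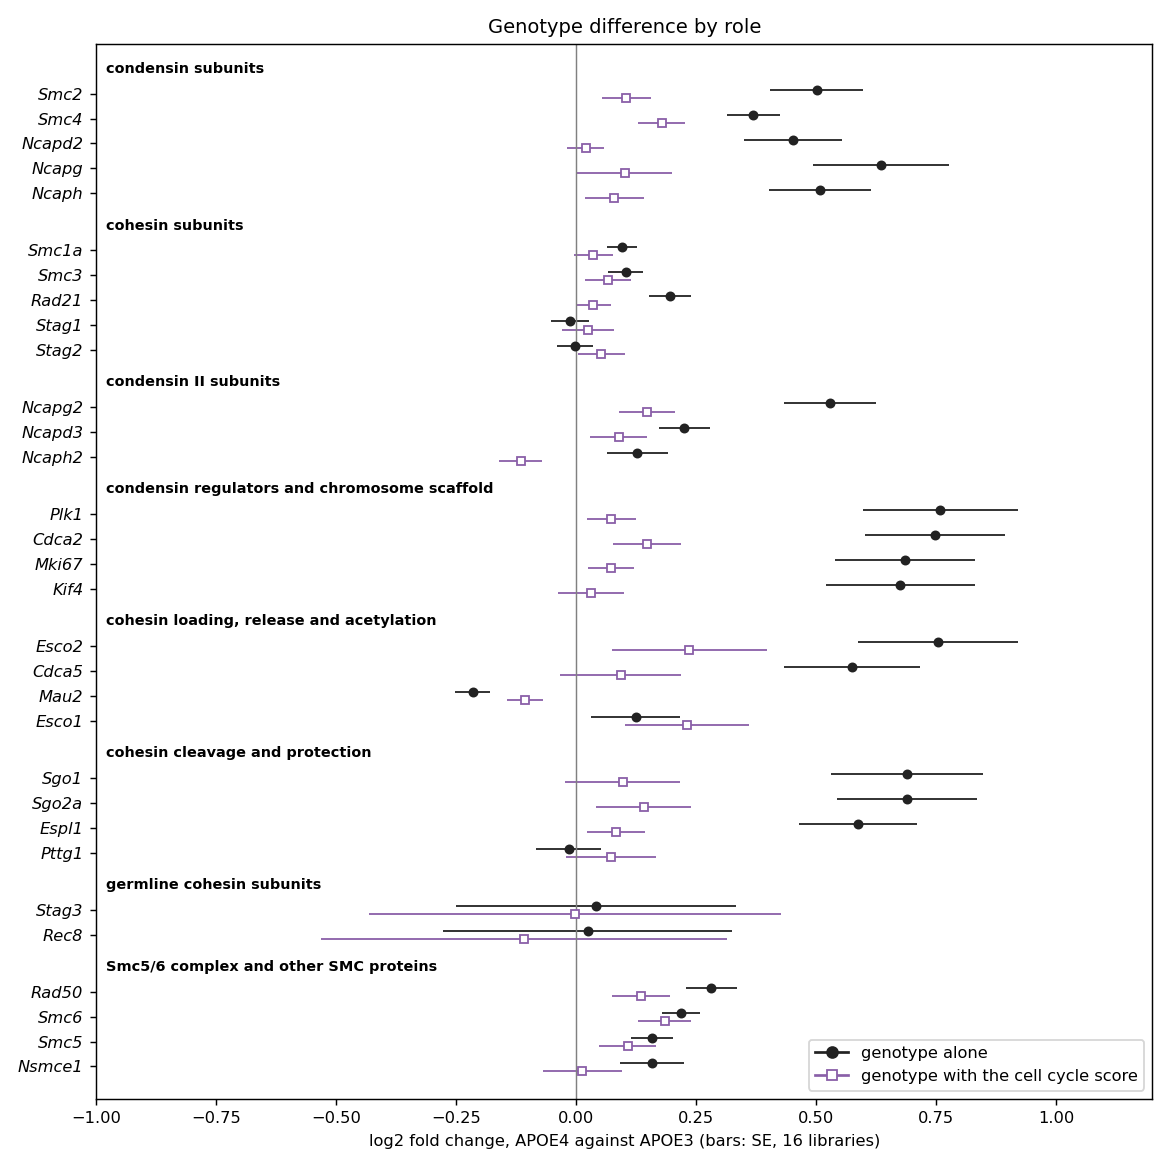
Log2 fold change of *APOE4* against *APOE3* with its SE over 16 libraries (x axis) for the 10 members and 21 other genes of the pathways by role, for genotype alone (filled circles) and with the cell cycle score in the model (open squares). The condensin subunits lie at 0.37 to 0.63 without the score and at 0.02 to 0.18 with it, and the cohesin subunits at -0.01 to 0.20 and 0.02 to 0.07.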

How the data were processed

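Poly(A)-selected RNA from 16 untreated cultures (100 ng each, 17 PCR cycles, paired reads of 50 nt) had been sequenced by the authors, and the deposited table holds whole-number read counts per gene without normalization. STAR and featureCounts, and the builds mm10 and hg38, are named in the submitters' processing notes. Versions, annotation release and strand setting are not given in the sources used here. Of 39056 mouse identifiers, 38872 matched GENCODE release 21 for mouse (vM21) and 184 did not. No 2 libraries were identical, and *Xist* and *Ddx3y* followed the labelled sex in every library.

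Counts were filtered by filterByExpr, normalized by TMM and tested with edgeR 4.0.16 (quasi-likelihood F test) in R 4.3.3, with Benjamini-Hochberg adjustment over 12481 genes and a threshold of 0.05. SEs were the log2 fold change over the root of its F value, and log2 CPM had a prior count of 2. Genotype was the single term. Sex and its interaction came from a fit of 4 groups, and slopes from genotype plus score. DESeq2 1.42.0, other size factors, filters and covariates, and each library left out, were alternatives. The code was tested on simulated data. Reads carry no molecular identifiers and p-values measure the spread between cultures.

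The members and lists were chosen with earlier results of these data known. Genes named beside them were up to 4 per list with the largest absolute fold change, the 5 most like each complex and the extremes of the cell cycle lists. *Top2a*, *Akap8*, *Mcph1*, *Nipbl*, *Wapl*, *Pds5a*, *Ctcf*, the genes of the closing section and those that differed by sex were named after their values were seen. Figures were drawn with matplotlib 3.10.9 in Python 3.11.15.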

Additional observations from a re-analysis of the deposited data

How the results depend on the processing

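The counts of members called are on the contrast that chose them and are given without inference. With the score added to the genotype fit, 0 members, 0 condensin genes, 0 cohesin genes and 0 other pathway genes were called. Of all 12481 genes tested, 0 were called in that fit, so these zeros are not particular to the members or lists. The count of cohesin genes was 2 with at least 10 counts in every library and 2 with DESeq2's Wald test, *Smc1a* being added in both, which made 7 members. Leaving out 1 library at a time gave 6 to 8 members, 5 condensin, 1 to 3 cohesin and 19 to 23 other pathway genes called. The cohesin count was 3 without *APOE3* replicate 27 (*Smc1a* and *Smc3* added) and 2 without *APOE4* replicate 36 or 38 (*Smc1a*) or without *APOE3* replicate 32 or *APOE4* replicate 40 (*Smc3*), against 846 to 2127 of all genes called over the 16 fits. It gave 0 members for sex and for the interaction and 6 for the slope. DESeq2-type size factors and no filter changed no call or direction among the 81 values recomputed, nor did sex as a covariate among 59. For levels per length, the median over the members was 12.65 CPM per kb with merged exons and 16.17 with the longest transcript.

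Some values changed sign, most of them near 0. With the score as a covariate, *Stag1* was at 0.0246, *Stag2* at 0.0525, *Pttg1* at 0.0718, *Stag3* at -0.0022 and *Rec8* at -0.1079. *Ncaph2* was not near 0, at 0.1276 (SE 0.0626) without the score and -0.1159 (SE 0.0444) with it, and passed in neither fit. The interaction of *Ncapg* was -0.0005 in DESeq2. The cause of these changes was not tested. Leaving out 1 library, the genotype difference ran from -0.0328 to 0.0087 for *Stag1*, -0.0184 to 0.0209 for *Stag2*, -0.0495 to 0.0098 for *Pttg1*, -0.1019 to 0.1951 for *Stag3* and -0.107 to 0.2 for *Rec8*, and with the score from -0.0025 to 0.058 for *Smc1a* and -0.0341 to 0.046 for *Stag1*. The slope of *Stag1* ran from -0.116 to 0.0044. The sex difference ran from -0.052 to 0.0824 for *Smc2*, -0.0205 to 0.0531 for *Smc4*, -0.1137 to 0.0506 for *Ncapd2*, -0.1389 to 0.0481 for *Ncapg*, -0.0066 to 0.0212 for *Smc1a*, -0.0353 to 0.0083 for *Smc3*, -0.0383 to 0.0078 for *Rad21*, -0.0088 to 0.0394 for *Stag1* and -0.0154 to 0.031 for *Stag2*. The interaction ran from -0.116 to 0.1396 for *Smc2*, -0.0378 to 0.2367 for *Ncapd2*, -0.1639 to 0.211 for *Ncapg*, -0.0692 to 0.0182 for *Smc3*, -0.0326 to 0.0651 for *Rad21*, -0.0262 to 0.0708 for *Stag1* and -0.021 to 0.072 for *Stag2*. Replicate numbers are not shared between the genotypes, so no paired fit was made. They run from 25 to 33 in *APOE3* and from 35 to 43 in *APOE4* libraries. Whether they follow the order of culture or processing is not given in the sources used here. If they do, order and genotype cannot be told apart.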

Other observations

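Other genes were read against the cell cycle score within genotype, on which 18% of all genes tested had a slope past the threshold. *Nsmce2*, a SUMO ligase of the Smc5/6 complex, had a slope of 0.60 per unit of score (SE 0.144, adjusted p = 0.00482 in edgeR) and a genotype difference of 0.08 (SE 0.103, adjusted p = 0.631). Of 10 brain endothelial markers 2 passed, both with a negative slope, a share near that of all genes (2247 of 12481 called, 1064 of them negative). They were *Slco1c1*, a thyroid hormone transporter, with a slope of -0.75 (SE 0.0936, adjusted p = 4.57e-06 in edgeR), and *Tek*, the angiopoietin receptor, with -0.36 (SE 0.0569, adjusted p = 9.71e-05). The rest did not pass and went both ways. *Pecam1*, the adhesion molecule that marks endothelium, had a slope of -0.06 (SE 0.0470, adjusted p = 0.434 in edgeR). Slopes were also negative for *Abcb1a* (-0.20), *Flt1* (-0.17), *Cldn5* (-0.13) and *Ocln* (-0.10). They were positive for *Slc2a1* (0.11), *Kdr* (0.09) and *Cdh5* (0.06).

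The loader genes *Nipbl* and *Mau2* had negative slopes on the score, of -0.19 (SE 0.0637, adjusted p = 0.0383 in edgeR) and -0.20 (SE 0.0515, adjusted p = 0.00750), where the kleisin *Rad21* had a positive one of 0.30.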
